A study of Mus musculus with 4 samples.

Results

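RNA of 10 genes of the transforming growth factor beta (TGF-beta) pathway was followed on 4 arrays of MC38 cells, a mouse colon adenocarcinoma line. The genes were the ligands Tgfb1, Tgfb2 and Tgfb3, the receptors Tgfbr1, Tgfbr2 and Tgfbr3, the signal transducers Smad3 and Smad7, the target gene Tgfbi, and Ltbp1, which encodes a latent TGF-beta binding protein. They were chosen by symbol in the platform's annotation, and all 10 were measured, each by 1 probe set, among 19505 named genes. They lie on 9 chromosomes. In both groups the mean signal of all 10 lay above the median of the array's negative-control features, and 0 of the 10 were removed by a filter.

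The series asks how the profile of Mgat5 knockout cells differs from that of control cells. Mgat5 encodes the Golgi enzyme N-acetylglucosaminyltransferase V, which puts a further branch on N-glycans. The control group held MC38 WT cells and MC38 cells with an empty vector (MOCK), and the knockout group held the CRISPR-Cas9 knockout cells titled KO T5 clone 1 and KO T5 clone 2, here clone 1 and clone 2, with 1 array each and so n = 2 per group. Each knockout array is 1 clone and neither control is titled as one, so cloning and Mgat5 loss cannot be told apart. In the sources used here, neither the guide nor the vector was described, and T5 was not explained. No label states separate cultures, and p-values then measure only the spread between these arrays. Mgat5 itself read 8.19 (MOCK), 8.27 (WT), 7.46 (clone 1) and 7.57 (clone 2) on the deposited log2 scale, so both clones were below both controls, though the difference of -0.71 (SE 0.37) did not pass the test across all probe sets (limma adjusted p = 0.631). The part of the transcript that this probe set reads was not compared with the edited site, and edits by Cas9 need not lower RNA, so these values do not check the labels. The arrays differed in their upper range, with a 75th percentile from 8.87 log2 units in WT to 9.60 in clone 2, while the negative-control median ran only from 5.12 to 5.22. Over all probe sets the knockout arrays stood 0.18 log2 units above the controls in the median, and at -0.02 once quantile normalization had given all arrays the same distribution. For the 10 genes, the direction of the difference and each clone's place against the controls are therefore given on both scales where they differ. For other genes, values and places are as deposited unless stated. Of 14 epithelial markers of the colon, among them Epcam, Cdh1, Krt8 and Krt18, the highest signal on any array was 5.86, and 2 had a group mean above the negative-control median. Vim, a mesenchymal intermediate filament, read from 16.53 to 17.43. Of 8 leukocyte markers 2 had a group mean above the negative-control median, Cd14 at 7.08 to 7.92 and Lyz2 at 4.87 to 5.92, and Ptprc read 4.32 to 4.77. Of 8 endothelial markers 1 did, Vwf in the controls at 5.48 and 5.49, and Pecam1 read 3.91 to 4.34.

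TGF-beta ligands are secreted in a latent form, tied to the matrix through latent TGF-beta binding proteins, and are freed by integrins, proteases and thrombospondin. Free ligand binds the type II receptor TGFBR2, which recruits and phosphorylates the type I receptor TGFBR1, and TGFBR1 then phosphorylates SMAD2 and SMAD3, which enter the nucleus with SMAD4. TGFBR3, or betaglycan, presents ligand to the signalling receptors, and SMAD7 is an induced inhibitor that closes a feedback loop. In colon the pathway restrains epithelial growth, and in carcinoma it also goes with matrix production and a mesenchymal state. The receptors carry N-glycans, and branches made by MGAT5 are known to bind galectins that hold such receptors at the cell surface, a step that RNA does not measure.

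Promoter windows are shown here for Tgfb2, Tgfbr1 and Tgfbi as the sequence context of those genes. For Tgfb2 and Tgfbr1 both clones lay above both controls, as they did for 27.8% of all probe sets as deposited, and neither was called. Tgfbi varied most between arrays. The windows run from 250 bases before to 50 bases after the annotated start, 5′ to 3′ on the gene's strand, from RefSeq on GRCm38.p6, where 7 of the 10 genes had an entry. Capitals mark the SMAD box CAGAC or its reverse complement GTCTG, and for Tgfbr1, which has 2 annotated starts, the outer one is shown.
Tgfb2 promoter, chr1:186705940-186706239, minus strand: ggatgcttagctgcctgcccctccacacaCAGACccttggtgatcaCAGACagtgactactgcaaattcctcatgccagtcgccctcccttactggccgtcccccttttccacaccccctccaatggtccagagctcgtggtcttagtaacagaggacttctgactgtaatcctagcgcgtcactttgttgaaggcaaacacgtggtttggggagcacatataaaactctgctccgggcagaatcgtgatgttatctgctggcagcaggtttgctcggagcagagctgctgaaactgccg
Tgfbr1 promoter, chr4:47352972-47353271, plus strand: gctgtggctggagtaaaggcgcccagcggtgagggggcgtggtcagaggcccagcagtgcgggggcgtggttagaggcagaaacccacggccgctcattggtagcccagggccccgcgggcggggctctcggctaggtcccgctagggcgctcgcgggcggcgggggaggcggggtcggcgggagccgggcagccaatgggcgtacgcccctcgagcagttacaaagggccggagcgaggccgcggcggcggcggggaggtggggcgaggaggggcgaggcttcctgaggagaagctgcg
Tgfbi promoter, chr13:56609336-56609635, plus strand: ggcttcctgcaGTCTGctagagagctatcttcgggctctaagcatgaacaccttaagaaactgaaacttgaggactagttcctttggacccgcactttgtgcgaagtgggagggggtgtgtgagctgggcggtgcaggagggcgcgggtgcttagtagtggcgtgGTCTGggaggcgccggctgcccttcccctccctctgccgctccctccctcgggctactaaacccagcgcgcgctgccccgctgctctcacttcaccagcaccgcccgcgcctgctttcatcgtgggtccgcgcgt
The Tgfb2 window held the SMAD box 2 times and the Tgfbi window 2 times, and the Tgfbr1 window 0 times. The short box is in 49.6% of the 32851 promoter windows of this length in the table, so its presence sets no gene apart. Neither the SMAD palindrome GTCTAGAC nor the AP-1 site TGANTCA nor the cyclic AMP response element TGACGTCA was found on either strand of these 3 windows, and the shares of all windows that hold them were 0.213%, 7.81% and 1.79%. The core of the interferon-stimulated response element, GAAA, any 2 bases and GAAA again, searched on both strands and absent from the Tgfb2 and Tgfbr1 windows, was found 1 time in the Tgfbi window, at position -194 from the start, and is in 3.44% of all windows. GC content was 54.3% for Tgfb2, 74.7% for Tgfbr1 and 63.3% for Tgfbi, beside a median of 52.7% over all windows. None of these motifs contains another, and a match is a description of letters and not of binding.

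None of the 10 genes passed the comparison of knockout with control. Limma called 0 of 10 at an adjusted p under 0.05, as deposited and after quantile normalization, where it called 0.0405% of all 22206 probe sets as deposited and 0.0045% after quantile normalization. With p unadjusted, 2 of the 10 were under 0.05 on each scale, Tgfb2 and Tgfbr1, as were 1944 of all probe sets as deposited. The difference was above 0 for 8 of the 10 genes as deposited and for 5 after quantile normalization, with a median of 0.34 log2 units, or -0.15, beside 0.18 and -0.02 over all probe sets. Both clones lay above both controls for 2 of the 10 genes, where 27.8% of all probe sets did so and 34.4% of those above the negative-control median in a group, and below both for 0, where 11.7% did. After quantile normalization both clones lay above both controls for 2 and below both for 1, where 19.2% and 21.3% of all probe sets did. The share of the 10 that separated was not above that of all probe sets. These are bulk RNA samples, in which fewer cells with a transcript and less of it per cell cannot be told apart.

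**Figure D1:**
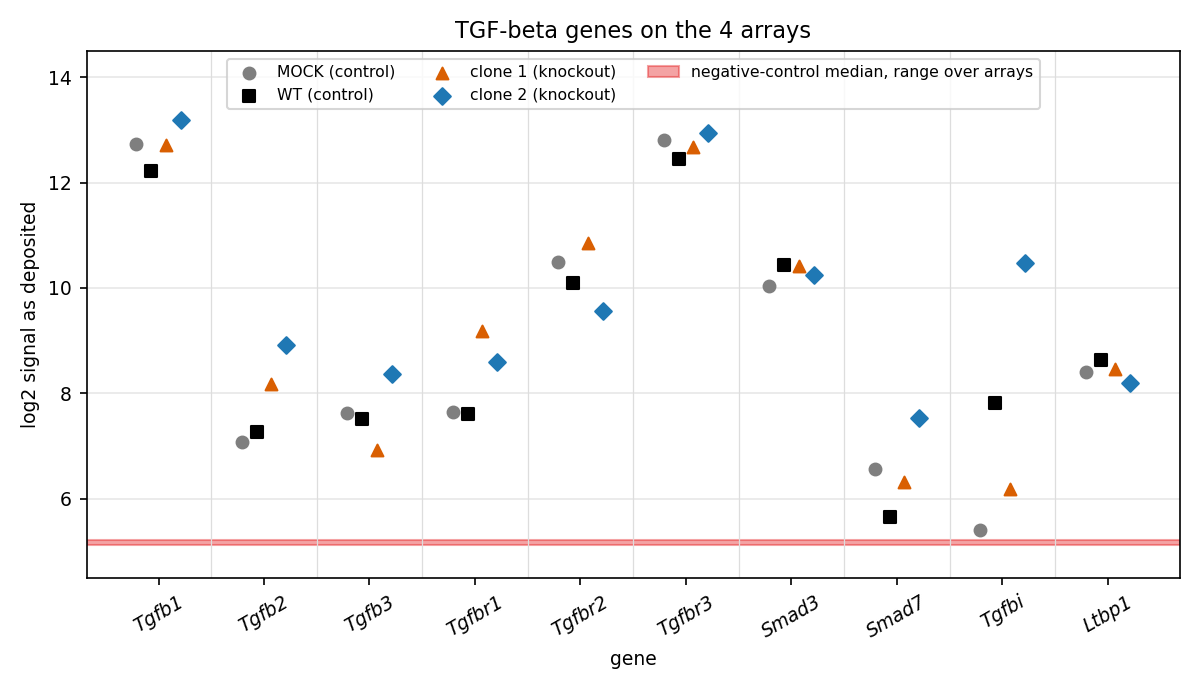
Deposited log2 signal of each of the 10 genes (horizontal axis) on the 4 arrays, 1 point per array, with the band showing the range of the negative-control median over the arrays. Both clones stand above both controls for Tgfb2 and Tgfbr1, and Tgfbi spans from 5.40 in MOCK to 10.47 in clone 2.

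Among the ligands, Tgfb2 was the one with both clones above both controls. MOCK was at 7.08 and WT at 7.27, so that the controls averaged 7.18 ± 0.14 (SD, n = 2). Clone 1 was at 8.17 and clone 2 at 8.92, averaging 8.55 ± 0.53 (SD, n = 2). The clones read 2.59-fold higher on average, a difference of 1.37 log2 units with a 95% interval of 0.48 to 2.27 that is not adjusted for the number of probe sets, and it did not pass (SE 0.41, limma adjusted p = 0.353, and 0.067 to 1 over the alternatives). After quantile normalization the groups stayed apart, at 7.14 and 7.61 against 8.08 and 8.61, and the difference was 0.97 (SE 0.34, adjusted p = 0.504). TGFB2 is the ligand that needs betaglycan most for access to the type II receptor. With 1 array left out the difference ran from 1.00 without clone 2 to 1.75 without clone 1. Its direction could not change there, because both clones lay above both controls.

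Tgfb1, which encodes the most widely made of the ligands, overlapped between the groups. It read 12.73 (MOCK), 12.22 (WT), 12.71 (clone 1) and 13.19 (clone 2), and the MOCK and clone 1 values differed by less than those of the controls. The difference between the group means was 0.48 (SE 0.40, limma adjusted p = 0.772) and became 0.00 (SE 0.31) after quantile normalization. The values were then 12.59 (MOCK), 12.85 (WT), 12.54 (clone 1) and 12.91 (clone 2), with clone 1 below and clone 2 above both controls. The 95% interval of the deposited difference ran from -0.41 to 1.36, so that a rise of more than 2-fold in the clones lies within it. Tgfb3, the remaining ligand, stood on opposite sides of the controls in the clones. It read 7.62 in MOCK and 7.51 in WT, with 6.92 in clone 1 below both and 8.36 in clone 2 above both. The group difference was 0.07 (SE 0.48, adjusted p = 0.979), and changed sign to -0.30 after quantile normalization and -0.06 after median centring.

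Among the receptors, Tgfbr1, the type I receptor kinase, was the one whose groups did not overlap. MOCK was at 7.65 and WT at 7.61, so that the controls averaged 7.63 ± 0.03 (SD, n = 2). Clone 1 was at 9.18 and clone 2 at 8.60, averaging 8.89 ± 0.41 (SD, n = 2). The controls were close together and each clone stood well above them, clone 1 more than clone 2. The difference was 1.26 log2 units or 2.39-fold (95% interval 0.40 to 2.12, SE 0.39) and did not pass (limma adjusted p = 0.369, and 0.221 to 1 over the alternatives). After quantile normalization the values were 7.69, 7.95, 9.06 and 8.30 in the order MOCK, WT, clone 1, clone 2, and the difference was 0.86 (SE 0.36, adjusted p = 0.541).

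Several genes next to Tgfbr1 on chromosome 4 read higher in both clones as well, as did a like number next to Ltbp1. Of the 20 measured neighbours, 10 on each side by the order of the RefSeq table, both clones lay above both controls for 11, and for 8 after quantile normalization, where 27.8% and 19.2% of all probe sets did so. The mean signal of 16 of the 20 was above the negative-control median in a group, and 34.4% of all such probe sets separated this way as deposited. Of the 11, Anks6, Galnt12 and Col15a1 were below the negative-control median in both groups. The median difference of the 20 was 0.51 log2 units as deposited and 0.25 after quantile normalization. Alg2, a mannosyltransferase of the dolichol pathway and the next measured gene, read 8.71 (MOCK), 8.48 (WT), 10.15 (clone 1) and 10.36 (clone 2). Nans, an enzyme of sialic acid synthesis, read 10.76, 10.60, 12.90 and 11.88 in the same order, and Trim14, an adaptor of antiviral signalling, 5.85, 5.23, 7.88 and 7.37. Other neighbours did not separate this way, such as Stx17, Erp44 and Invs, which overlapped, and Msantd3, at a difference of -0.48. These neighbours were chosen for description after the Tgfbr1 values were seen, and limma called 0 of them, with adjusted p from 0.121 to 0.988. Both clones lay above both controls for 10 of the 20 neighbours of Ltbp1, and for 8 after quantile normalization, and for 8 and 4 of those of Tgfb3. Around the remaining 7 members the count was from 1 to 7, and from 1 to 5 after quantile normalization. Around the other 9 members the neighbours' median difference ran from 0.05 at Smad7 to 0.42 at Ltbp1 as deposited, and from -0.16 to 0.11 after quantile normalization. The part of the position on chromosome 4 in the Tgfbr1 value was not tested.

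**Figure D2:**
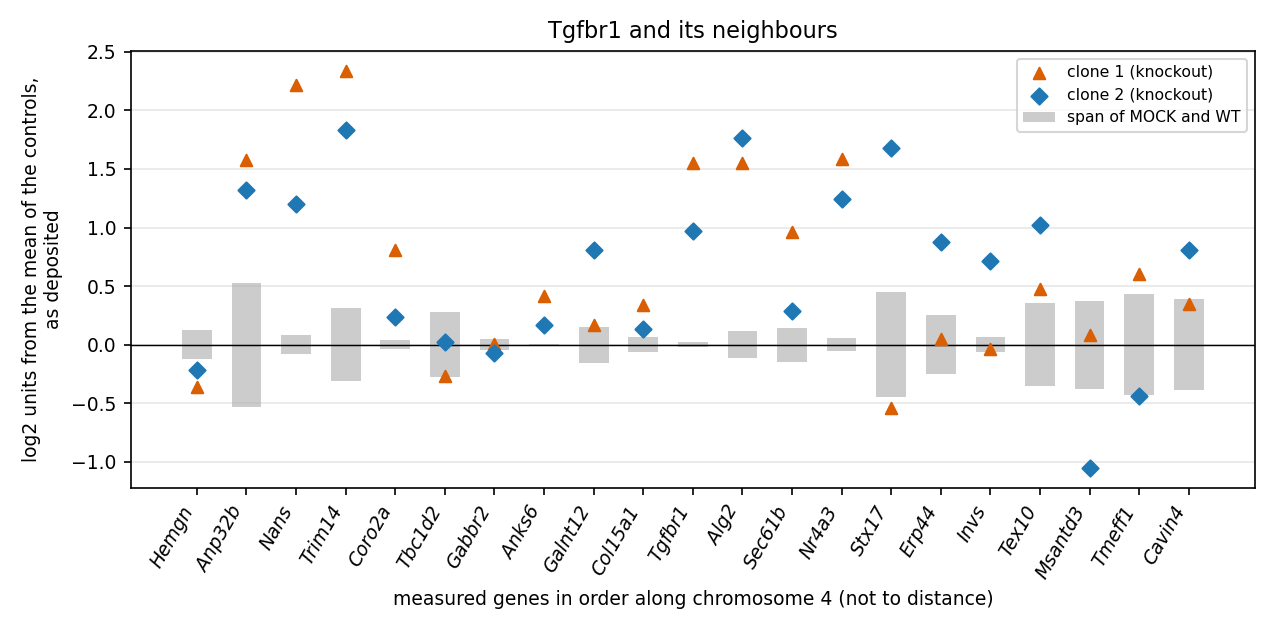
Tgfbr1 and its 20 measured neighbours in order along chromosome 4 (horizontal axis, order only), with each clone's deposited log2 signal minus the mean of the controls (vertical axis) and a grey bar for the span of MOCK and WT. Both clones lie above the bar at Tgfbr1 and at 11 of the 20 neighbours, among them Nans, Trim14 and Alg2.

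The other receptors did not separate by group. Tgfbr2, the type II receptor that binds ligand first, read 10.50 (MOCK), 10.09 (WT), 10.86 (clone 1) and 9.57 (clone 2). Clone 1 was thus above and clone 2 below both controls, and the group difference was -0.08 (SE 0.47, limma adjusted p = 0.977). After quantile normalization, at 10.44, 10.55, 10.75 and 9.25, clone 1 was again above and clone 2 below both controls, with a wider gap of -1.51 between clone 2 and clone 1 than the -1.30 as deposited. Tgfbr3, betaglycan, overlapped between the groups, at 12.80, 12.44, 12.68 and 12.94 in the order MOCK, WT, clone 1, clone 2. Its difference was 0.20 (95% interval -0.65 to 1.04, SE 0.38, adjusted p = 0.919) as deposited and changed sign to -0.29 after quantile normalization. The values were then 12.66, 13.10, 12.51 and 12.66 in the same order, with clone 1 below both controls and clone 2 level with MOCK.

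The transducers gave no separation either. Smad3, which carries the signal to the nucleus, read 10.03 (MOCK), 10.43 (WT), 10.42 (clone 1) and 10.25 (clone 2), so that both clones fell between the controls. The difference was 0.10 (SE 0.38, limma adjusted p = 0.961), with a 95% interval of -0.74 to 0.95, and it changed sign to -0.34 after quantile normalization and -0.03 after median centring. The quantile-normalized values were 10.01, 10.92, 10.31 and 9.93 in the same order, with clone 2 below both controls. Smad7, the inhibitory SMAD of the feedback loop, read 6.56 (MOCK), 5.65 (WT), 6.31 (clone 1) and 7.54 (clone 2). Clone 2 alone was above both controls and clone 1 fell between them. The group difference was 0.82 (SE 0.50, adjusted p = 0.684), or 0.55 after quantile normalization, and it was 0.21 without clone 2 and 1.44 without clone 1. The Smad7 signals in WT and clone 1 were below the 75th percentile of the negative-control features on those arrays, at 6.29 and 6.42.

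Tgfbi, the matrix protein gene named for its induction by TGF-beta, had the largest difference of the 10 and also the largest spread. It read 5.40 in MOCK and 7.82 in WT, and 6.19 in clone 1 and 10.47 in clone 2. The controls alone were 2.42 log2 units apart and the clones 4.28, so clone 2 was above both controls and clone 1 fell between them. The difference of the means, 8.33 ± 3.03 against 6.61 ± 1.71 (SD, n = 2 each), was 1.72 with a 95% interval of -0.80 to 4.23 (SE 1.14, limma adjusted p = 0.718, and 0.0016 to 1 over the alternatives). Without clone 1 it was 3.86 and was called (limma adjusted p = 0.0016), the single call on any of the 10 genes under the alternatives run. That fit called 2.38% of all probe sets and 14 of the 146 other pathway genes, where the fit with all arrays called 0.0405% and 0. Without clone 2 the Tgfbi difference was -0.42. In those fits the lone clone is assumed to vary like the controls. Quantile normalization left the order unchanged, at 5.40, 8.18, 6.14 and 10.18. The MOCK and clone 1 values lie below the 75th percentile of the negative-control features on those arrays, at 6.56 and 6.42, which limits how well the gaps to them are measured.

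Over all named genes, those nearest to the Tgfbi profile on the 4 arrays, after subtraction of each gene's own mean, were Phf11d, Sp140 and Ifit3, at root-mean-square distances of 0.36, 0.53 and 0.54 log2 units. Ifit3, an interferon-induced antiviral gene, read 11.49 (MOCK), 12.51 (WT), 11.44 (clone 1) and 15.35 (clone 2). Phf11d read 7.86, 9.73, 8.01 and 13.14 in the same order, with clone 2 highest and WT next as for Tgfbi. With 4 arrays such likeness is a description of these arrays.

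Ltbp1, which anchors the latent ligand in the matrix, overlapped between the groups as deposited, at 8.40 (MOCK), 8.64 (WT), 8.46 (clone 1) and 8.19 (clone 2). Its difference was -0.19 (SE 0.38, limma adjusted p = 0.918). After quantile normalization the values were 8.44, 9.04, 8.37 and 7.89, both clones then lay below both controls, and the difference was -0.61 (SE 0.35, adjusted p = 0.648). On that scale 21.3% of all probe sets had both clones below both controls.

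The clones differed from each other in 4 of the 10 genes by at least 1 log2 unit, on either scale, where 12.7% of all probe sets did as deposited and 11.3% after quantile normalization. Among probe sets above the negative-control median in a group, as all 10 genes were, 11.1% were that much higher in clone 2 and 5.46% lower, as deposited. Tgfbi, Tgfb3 and Smad7 were higher in clone 2, by 4.28, 1.44 and 1.23, and Tgfbr2 was higher in clone 1. Between the controls 1 gene, Tgfbi, was as far apart, where 10.1% of all probe sets were as deposited and 4.52% after quantile normalization. Against the mean of the controls, 1 gene stood at least 1 log2 unit higher in clone 1, Tgfbr1 at 1.55, where 6.31% of all probe sets did, and Tgfb2 was just under that level before rounding. In clone 2 there were 3, Tgfbi at 3.86, Tgfb2 at 1.75 and Smad7 at 1.44, where 11.8% did. As far below were 0 genes in either clone, where 2.3% of all probe sets were in clone 1 and 1.91% in clone 2. Counted in either direction, the shares of all probe sets were 8.61% for clone 1 and 13.7% for clone 2. After quantile normalization Tgfbr1 was again the 1 gene in clone 1, where 3.94% of all probe sets were at least 1 unit higher, 3.03% lower and 6.97% either way. In clone 2 Tgfbr2 was added at -1.25, which made 4 genes, where 5.41% were higher, 4.54% lower and 9.96% either way. Both clones are compared with the same controls, and differences between single arrays have no test.

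**Figure D3:**
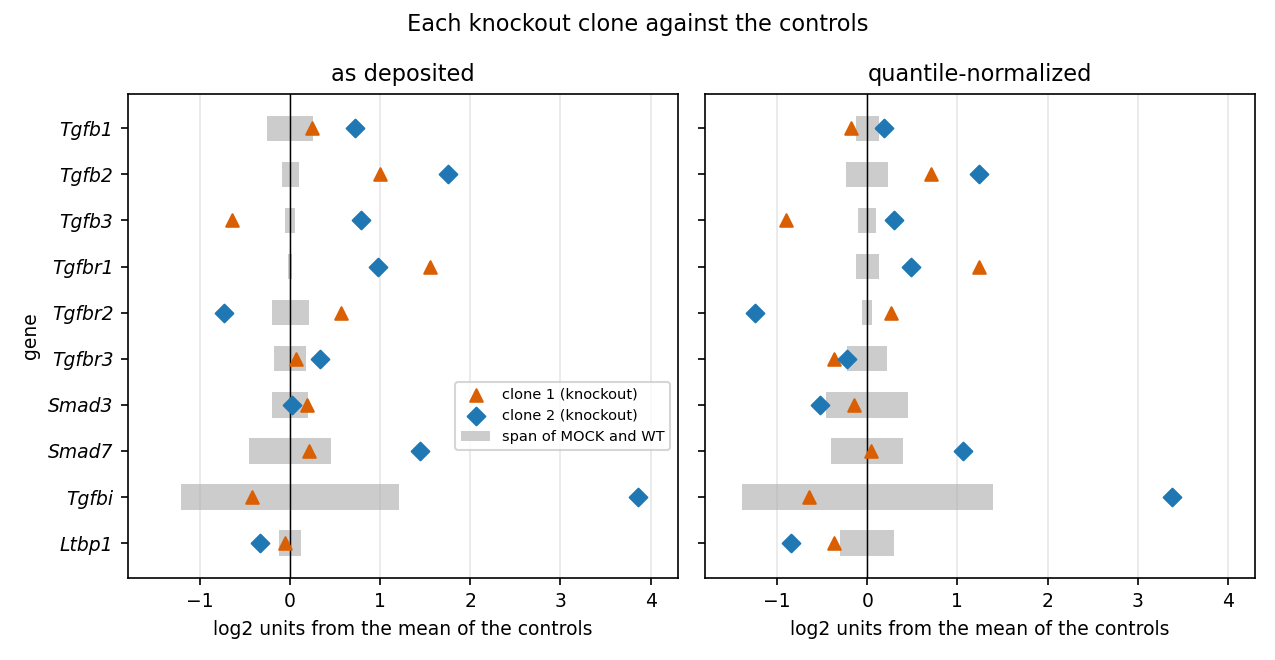
Log2 signal of each clone minus the mean of the controls for the 10 genes (vertical axis), as deposited on the left and quantile-normalized on the right, with a grey bar for the span of MOCK and WT. Tgfb2 and Tgfbr1 lie to the right of the bar in both clones, Tgfb3 and Tgfbr2 lie on opposite sides in the clones, and the bar of Tgfbi is the widest. In the right panel Tgfb1 also lies on opposite sides.

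Other genes of the pathway came from 7 lists written by role, with 146 of their 152 genes measured. Limma called 0 of the 146, and 18 had an unadjusted p under 0.05, as did 1944 of all 22206 probe sets. Their median difference was 0.36 log2 units as deposited and 0.08 after quantile normalization, beside 0.18 and -0.02 over all probe sets, and both clones lay above both controls for 48 (32.9%) and below both for 12 (8.22%), where 27.8% and 11.7% of all probe sets did. After quantile normalization those counts were 30 (20.5%) and 21 (14.4%), where 19.2% and 21.3% did. The difference was above 0 for 103 of the 146 as deposited, where it was for 14460 of all 22206 probe sets, and for 84 after quantile normalization, where it was for 10723.

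Of 20 genes that hold latent ligand or free it, 14 were higher and 6 lower in the knockout mean, and 0 were called, with a median of 0.13. After quantile normalization 9 of the 20 were higher and the median was -0.03. Plat, tissue plasminogen activator, which makes the ligand-releasing protease plasmin, read 4.96 (MOCK), 5.69 (WT), 7.18 (clone 1) and 8.51 (clone 2), the MOCK value being below the negative-control median (difference 2.52, SE 0.50, limma adjusted p = 0.121). Thbs1, thrombospondin-1, which activates latent TGF-beta, read 9.24, 10.52, 10.76 and 12.68 in the same order (difference 1.84, SE 0.62, adjusted p = 0.42). Itgb5, a subunit of an integrin that binds the latent complex, read 9.14, 8.84, 10.16 and 9.84. These genes had both clones above both controls, though for Thbs1 and for Mmp14 the groups overlapped after quantile normalization. The matrix metalloproteinases were highest in clone 2. Mmp14, a membrane-bound protease, read 10.94, 11.19, 11.44 and 13.07, and Mmp9, a gelatinase, 5.31, 6.05, 5.47 and 8.33. Mmp2, another gelatinase and chosen after its values were seen, read 11.61, 12.28, 9.86 and 14.29, with clone 1 below and clone 2 above both controls.

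Of 12 other receptors and co-receptors of the superfamily, 9 were higher and 3 lower, 0 were called, and the median was 0.26, or 0.13 after quantile normalization. Acvr2a, an activin type II receptor, read 7.76 (MOCK), 7.10 (WT), 8.42 (clone 1) and 9.85 (clone 2) (difference 1.70, SE 0.50, limma adjusted p = 0.353). Acvr1b, an activin type I receptor that signals through SMAD2 and SMAD3, read 4.84 and 4.69 in the controls, below the negative-control median, and 5.99 and 6.57 in the clones (adjusted p = 0.269). Acvr2a and Acvr1b had the largest differences of this list, and for each both clones lay above both controls on either scale. Acvr1, another receptor of the list, overlapped on either scale, at 6.39 (MOCK), 6.65 (WT), 6.53 (clone 1) and 7.44 (clone 2) as deposited. Bmpr2, the type II receptor of bone morphogenetic proteins, overlapped, at 13.22, 12.63, 13.18 and 13.34 in the order MOCK, WT, clone 1, clone 2.

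Of 16 SMAD transducers and partners 13 were higher and 3 lower, 0 were called, and the median was 0.47, or 0.07 after quantile normalization. Tab1, an adaptor of the kinase TAK1 in SMAD-independent signalling, read 7.68 (MOCK), 7.41 (WT), 8.99 (clone 1) and 8.78 (clone 2) (difference 1.34, SE 0.38, limma adjusted p = 0.33). Hgs, an endosomal adaptor, read 12.01, 11.19, 11.83 and 13.47 in the same order, with clone 1 between the controls. After quantile normalization clone 1, at 11.68, was just below both controls, at 11.93 and 11.72. Zfyve9, which brings SMADs to the receptor, read 8.80, 8.23, 9.63 and 8.96, and its groups overlapped after quantile normalization.

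Of 25 feedback genes and inhibitors 19 were higher and 6 lower, 0 were called, and the median was 0.41, or 0.08 after quantile normalization. Pmepa1, a target that sequesters SMADs and damps the signal, read 8.28 (MOCK), 8.51 (WT), 9.59 (clone 1) and 12.24 (clone 2) (difference 2.52, SE 0.69, limma adjusted p = 0.308). Skil, a SMAD corepressor that is itself induced, read 10.04, 9.31, 10.11 and 11.22, and Nedd4l, a ubiquitin ligase for activated SMADs, 11.22, 10.80, 11.36 and 12.42. In these 3 genes clone 2 was the highest array and clone 1 came next, by a small margin over MOCK for Skil and Nedd4l, whose groups overlapped after quantile normalization. The matrix proteoglycans that bind TGF-beta differed in opposite directions without a call. Dcn, decorin, read 12.95, 13.61, 8.94 and 11.18 in the order MOCK, WT, clone 1, clone 2 (difference -3.22, SE 0.63, adjusted p = 0.121), and Bgn, biglycan, read 6.71, 6.34, 8.08 and 8.16 (difference 1.59, SE 0.38, adjusted p = 0.224). Bambi, a pseudoreceptor that blocks the type I receptor and was chosen after its values were seen, read 6.33 and 6.12 in the controls, 8.36 in clone 1 and 4.71 in clone 2, the last below the negative-control median.

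Of 41 target genes of TGF-beta 31 were higher and 10 lower, 0 were called, and the median was 0.54, or 0.34 after quantile normalization. The list gives no direction of response for its genes, so these counts do not measure the activity of the pathway. Cdkn1a, which encodes the cell cycle inhibitor p21 and also answers to p53, read 10.52 (MOCK), 10.09 (WT), 12.57 (clone 1) and 12.99 (clone 2) (difference 2.47, SE 0.39, limma adjusted p = 0.0658). Ankrd1, a nuclear cofactor, read 12.21, 11.33, 13.38 and 13.70 (difference 1.77, SE 0.42, adjusted p = 0.225), and Timp1, an inhibitor of metalloproteinases, 11.68, 11.19, 12.49 and 13.36. Tsc22d1, a leucine zipper protein gene, read 14.56, 14.45, 15.74 and 15.96. In these 4 genes both clones were above both controls on either scale. Postn, the matrix protein periostin, was instead high in clone 2 alone, at 6.41 (MOCK), 4.91 (WT), 4.79 (clone 1) and 9.09 (clone 2), with WT and clone 1 below the negative-control median. Col5a1, a fibrillar collagen chain chosen after its values were seen, was also highest in clone 2, at 6.24, 6.23, 5.12 and 8.85, with clone 1 below the negative-control median.

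Of 23 genes listed as other ligands of the superfamily 11 were higher and 12 lower, 0 were called, and the median was 0.00, or -0.06 after quantile normalization. The list includes Bmp1, which encodes a protease and not a ligand. Inhba, the activin A subunit, read 8.01 (MOCK), 7.43 (WT), 7.35 (clone 1) and 9.31 (clone 2), and Bmp4, a bone morphogenetic protein, 5.50, 5.89, 3.95 and 5.57, with clone 1 below the negative-control median. Of 10 targets of bone morphogenetic proteins 7 were higher and 3 lower, 0 were called, and the median was 0.47, or 0.28 after quantile normalization. Id2, an inhibitor of helix-loop-helix factors, read 10.62, 10.11, 10.21 and 12.76, and Id3, of the same family, 6.90, 7.74, 7.65 and 8.86. Atoh8, a helix-loop-helix factor, read 5.94, 5.69, 5.74 and 7.70. For these 3 clone 2 was above both controls and clone 1 fell between them as deposited. After quantile normalization clone 1 was below both controls for Id2, at 10.09, and for Atoh8, at 5.74. Smad6, which is also in the feedback list, read 6.82, 6.54, 7.11 and 7.87, and Hey1 5.79, 5.04, 6.11 and 5.96. For Smad6 and Hey1 both clones were above both controls, though the groups of Hey1 overlapped after quantile normalization.

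More pathway genes stood well above the other clone in clone 2 than in clone 1. Of the 146 genes 36 were at least 1 log2 unit higher in clone 2 and 3 lower, where 8.6% and 4.12% of all probe sets were, and after quantile normalization the counts were 26 and 6, where 5.54% and 5.74% were. Among probe sets above the negative-control median in a group, the shares as deposited were 11.1% and 5.46%. By list, the genes higher in clone 2 numbered 7 of 20 for latency and activation, 10 of 41 for target genes, 4 of 10 for targets of bone morphogenetic proteins, 5 of 23 for other ligands, 5 of 25 for feedback genes, 3 of 16 for SMAD transducers and 2 of 12 for other receptors. After quantile normalization they numbered 5, 7, 4, 4, 2, 2 and 2 in the same order, and 2 feedback genes were as far lower in clone 2. Against the controls, 41 of the 146 stood at least 1 unit higher in clone 2 and 15 in clone 1, where 11.8% and 6.31% of all probe sets did. After quantile normalization those counts were 23 and 9, where 5.41% and 3.94% did. The median of clone 2 minus clone 1 was 0.25 over the 146 genes, beside 0.13 over all probe sets. Of 9 fibroblast markers, which share Dcn and collagen genes with these lists, 2 were at least 1 unit higher in clone 2 and 1 lower, and 6 had a group mean above the negative-control median, while Lum, Thy1 and Fap did not. Their median signal was 5.08 (MOCK), 5.29 (WT), 6.99 (clone 1) and 5.99 (clone 2). That median was the value of Col1a2 on the MOCK, WT and clone 1 arrays, and of Col1a1 on the clone 2 array. Taken per gene against the mean of the controls, the median difference was 0.06 for clone 1 and 0.24 for clone 2. With quantile-normalized values it was -0.11 and 0.04, respectively. The part of other cells in the difference between the clones was not tested. These are single arrays, and the lists were written with earlier results of these data known.

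**Figure D4:**
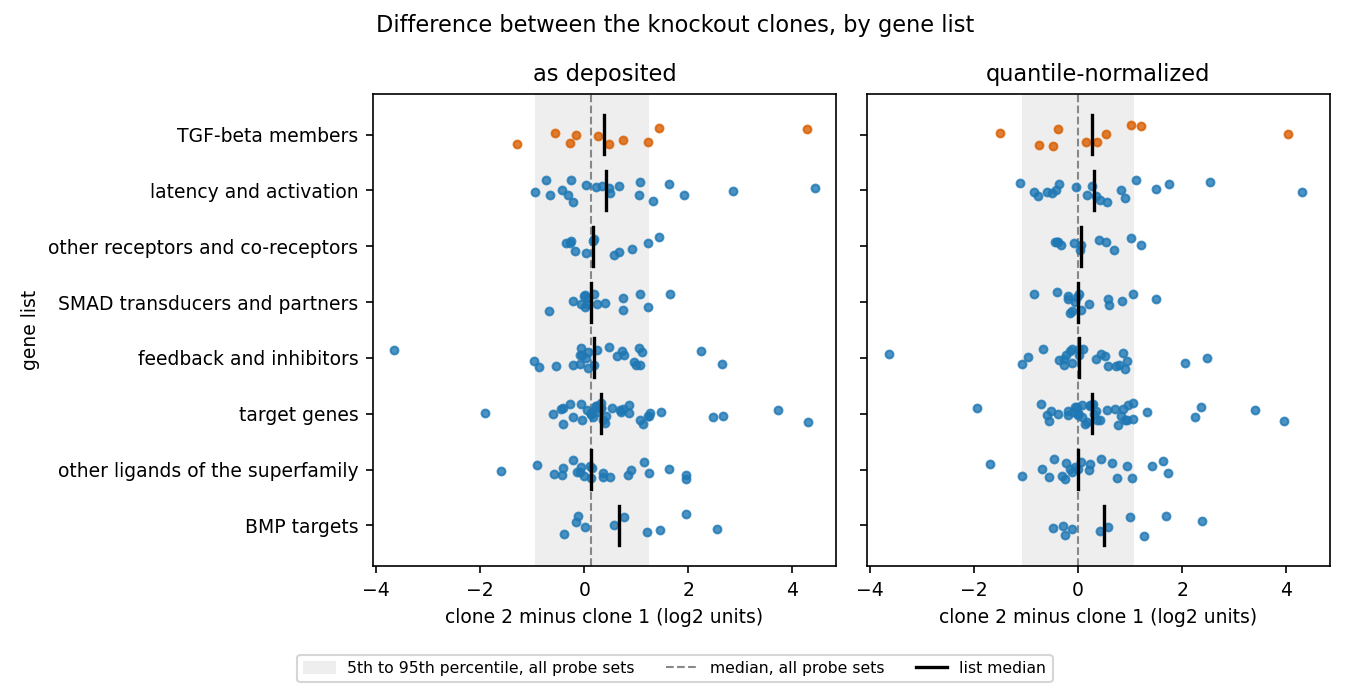
Clone 2 minus clone 1 in log2 units (horizontal axis) for each measured gene, 1 point per gene, by list (vertical axis), as deposited on the left and quantile-normalized on the right, with the list median as a black bar and the 5th to 95th percentile of all probe sets shaded, from -0.92 to 1.23 and from -1.05 to 1.05. More points lie beyond the shading to the right than to the left, with Tgfbi, Mmp2 and Postn farthest to the right and Bambi farthest to the left.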

How the data were processed

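The 4 arrays, 1 each for MOCK, WT, clone 1 and clone 2, are Clariom S mouse arrays with 1 colour. The authors processed them with the Transcriptome Analysis Console, per the series' design text, and deposited normalized log2 signals, 1 per feature and array. The normalization method, the console's version and the annotation's build were not given in the sources used here, and the log2 scale was read from the range of the values. The number of arrays limits the precision.

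Of 28846 features, 6640 control features, 5222 of them negative controls, were set aside, which left 22206 probe sets for the test. Symbols came from the platform's annotation through Entrez identifiers to RefSeq (GRCm38.p6), which gave 1 symbol for 19572 probe sets and none for 2634. The probe set with the highest mean stood for a gene. Groups came from the titles; a cell label names the knockout on all 4 arrays. Limma 3.58.1 (R 4.3.3, lmFit, eBayes) compared knockout with control without covariates, with Benjamini-Hochberg adjustment over all 22206 probe sets. A run on simulated data with known shifts checked the mean size of its estimates and set no limit on its calls. Fold is 2 to the power of the difference. Named beside the 10 genes are, per list, genes among the 5 with the largest difference whose mean was above the negative-control median in a group, marker genes, and genes stated as chosen after their values were seen. The members and lists were chosen with earlier results of these data known. Alternatives were quantile normalization, median centring, 2 filters on dim signal, eBayes with trend and robust, the mean of a gene's probe sets, and each array left out in turn.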

Additional observations from a re-analysis of the deposited data

How the results depend on the processing

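Of 100 values of the 10 genes under 10 alternatives, 89 kept their sign before rounding and their side of the threshold, 10 changed direction and 1 gained a call. Under the filters, eBayes with trend and robust, and the mean of probe sets, the differences were those as deposited. Their sign could not change there, and only their side of the threshold could. Tgfb2, Tgfbr1, Smad7 and Ltbp1 kept their direction under all 10, and Tgfb1 under 9, with 0.00 after quantile normalization and so no direction there. For Tgfb2 and Tgfbr1, whose groups did not overlap as deposited, leaving out 1 array could not change the direction. After quantile normalization Tgfb3 became -0.30, Tgfbr3 -0.29 and Smad3 -0.34, and after median centring Tgfb3 -0.06 and Smad3 -0.03. Without MOCK Tgfbr2 became 0.12 and Smad3 -0.10, and without clone 2 Tgfb3 became -0.64, Tgfbr2 0.57 and Tgfbi -0.42. With 1 array left out the ranges were -0.64 to 0.79 for Tgfb3, -0.73 to 0.57 for Tgfbr2, -0.10 to 0.31 for Smad3 and -0.42 to 3.86 for Tgfbi. The cause was not tested. Limma called 0 to 1 of the 10 genes with 1 array left out, the 1 being Tgfbi without clone 1, and 0 under the other alternatives. Of the 146 other pathway genes it called 5 with probe sets under the median mean signal removed, 3 with those under the 25th percentile removed, 7 with eBayes trend and robust, and 0 to 14 with 1 array left out, the 14 without clone 1 and 4 without clone 2. Among the called in these fits, Plat, Dcn and Cdkn1a appeared in both filters and with trend and robust. Over all probe sets the 9 calls became 1 after quantile normalization, 196 and 125 with the filters, 340 with trend and robust and, with 1 array left out, 0 to 529, namely 0 without WT, 1 without MOCK, 149 without clone 2 and 529 without clone 1. No paired analysis was possible because the titles of the controls carry no replicate number. Signals near the negative-control median, as for Smad7 and Tgfbi in some arrays, limit the size of their differences.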
